A study of Emiliania huxleyi CCMP1516 with 36 samples.

Results

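Axenic Emiliania huxleyi cultures 72 h after addition of HHQ at 10 ng/ml were set against cultures 24 h after the same addition. The comparison uses 8 of the 36 libraries of the series, chosen by their titles alone: the 4 biological replicates with this dose at 72 h and the 4 at 24 h. All 26494 genes with enough counts to be tested were examined. Emiliania huxleyi is a single-celled marine coccolithophore, and HHQ (2-heptyl-4-quinolone) is an alkylquinolone that some bacteria release. All libraries came from strain CCMP2090, although the organism field names CCMP1516, and were grown as axenic batch cultures on a light and dark cycle. Besides the HHQ 10 groups, 4 libraries each of HHQ at 100 ng/ml (HHQ 100) and of the vehicle alone, at 72 h and at 24 h, are used below. HHQ was dissolved in dimethyl sulfoxide, at 0.002% in the culture, and the vehicle cultures received dimethyl sulfoxide too. The comparison asks how far transcript levels under the middle dose had moved by 72 h, and whether they moved otherwise than in vehicle cultures of the same age. The labels do not say whether 24 h and 72 h samples with one number came from the same bottle.

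Copying of the nuclear genome in eukaryotes rests on DNA polymerase alpha, which lays down primers, on polymerases delta and epsilon, which extend the new strands, and on the clamp loader (replication factor C, RFC), which places the sliding clamp on DNA. In Pseudomonas aeruginosa HHQ is a quorum-sensing signal and the precursor of another quinolone signal. Lhcf genes encode antenna proteins that bind fucoxanthin and chlorophyll and pass light energy to the photosystems. Roles given below for single genes follow the usual meaning of the symbol.

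A level below is a normalised count, scaled by library size and the trimmed mean of M values (TMM) and written as CPM. It is not corrected for gene length, so levels are compared between libraries and not between genes. A difference is a log2 fold change of 72 h over 24 h with its standard error after ±. Called genes had an adjusted p under 0.05 in edgeR's quasi-likelihood test, with the Benjamini-Hochberg method applied over all genes tested. Genes named for the largest changes, with or without a symbol, were required to have groups that did not overlap. For those genes separate groups follow from the naming rule and add no support. Genes named from a list alone were not held to this. In bulk RNA, fewer cells of one kind and less RNA per cell cannot be told apart.

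The HHQ 10 libraries at 72 h held 11622915 to 33089895 counts and those at 24 h 12110242 to 42602884. At 72 h replicates 1 and 2 stood apart, with TMM factors of 0.665 and 0.605, against 1.08 and 0.945 in replicates 3 and 4. At 24 h replicate 4 stood apart, with 0.927 against 1.22 to 1.27, and the part of these libraries in the results was not tested beyond the fits without them. The same replicate numbers had the lower factors in vehicle and HHQ 100. At 72 h replicates 1 and 2 had 0.727 and 0.491 in vehicle, against 0.868 and 0.895. In HHQ 100 they had 1.34 and 1.23, against 2.13 and 1.74. At 24 h replicate 4 had 0.670 in vehicle, against 1.05 to 1.10, and 1.60 in HHQ 100, against 1.64 to 1.83. The source of this shared pattern was not tested. Correlations of log CPM within a group ran from 0.934 to 0.974. The replicates differed by at least 7.82 chi-square units per gene, so each library was counted. The 4 genes with a symbol that mark the motile, flagellated stage had 0 counts in each of the 36 libraries.

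At 72 h against 24 h under HHQ 10, 3268 of 26494 tested genes differed (12.3%), 1411 higher at 72 h (5.33%) and 1857 lower (7.01%). On library totals in place of TMM factors, the median log2 fold change of all genes was −0.52 instead of −0.02, and the same test gave 530 higher and 3571 lower, so that 12.9% of the calls were higher instead of 43.2%. Changes below are relative to the TMM scale. By more than 2-fold, 955 genes rose (3.6%) and 895 fell (3.38%). At an unadjusted p under 0.05 there were 7556 (28.5%). The 4 and 4 libraries did not overlap for 4473 genes (16.9%). Of the 661 tested genes with a symbol 44 were higher and 82 lower. The count of calls was 1878 without 24 h replicate 2, 2077 without 72 h replicate 2 and 1401 with replicates 3 and 4 alone at 72 h.

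DNA replication genes fell together. Of 11 tested genes for replicative polymerases and the clamp loader, 10 were lower at 72 h and 0 higher (edgeR; 0 higher and 11 lower at an unadjusted p under 0.05, and 0 and 10 with DESeq2), with a median log2 fold change of −2.58 against −0.02 over all genes tested. Of all tested genes 7.01% were lower. Under each alternative run and with any 1 library left out, 9 to 11 members were called lower. Across the vehicle time course 0 members were called (edgeR; 1 higher and 0 lower at an unadjusted p under 0.05, and 0 and 0 with DESeq2), and the median there was 0.01, or −0.39 on library totals, where the median of all genes was −0.36. Earlier results on these same libraries had already picked out this list.

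POLA1, the catalytic subunit of DNA polymerase alpha, stood at 4.61, 4.69, 4.77 and 3.73 CPM at 72 h, against 24.2, 34.3, 22.6 and 29.4 CPM at 24 h. Every 72 h culture lay far below every 24 h culture, and the log2 fold change was −2.63 ± 0.25 (edgeR adjusted p = 1.64e-08). In vehicle the gene averaged 2.13 ± 0.461 CPM at 72 h and 1.99 ± 0.400 CPM at 24 h (SD, n = 4 each).

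POLD1-1, named for the catalytic subunit of polymerase delta, gave 3.49, 3.55, 2.33 and 2.09 CPM at 72 h, against 16.9, 23.9, 15.2 and 21.1 CPM at 24 h (−2.74 ± 0.25, edgeR adjusted p = 7.52e-09). Its similarly named copy POLD1-2 gave 2.93, 4.19, 2.50 and 2.55 CPM at 72 h, against 18.9, 24.4, 16.6 and 16.4 CPM at 24 h (−2.64 ± 0.28, edgeR adjusted p = 8.58e-08). The groups did not overlap for either copy, and since copies can share reads the value of each alone is uncertain. POLE1, the catalytic subunit of polymerase epsilon, had 1.33, 1.50, 0.944 and 0.910 CPM at 72 h, against 9.97, 14.1, 9.02 and 10.2 CPM at 24 h (−3.19 ± 0.37, edgeR adjusted p = 3.31e-07). These libraries were fully separated as well.

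The accessory subunits went the same way. POLD2, the small subunit of polymerase delta, gave 0.768, 1.05, 0.555 and 0.637 CPM at 72 h, against 4.34, 5.23, 3.21 and 4.50 CPM at 24 h (−2.49 ± 0.30, edgeR adjusted p = 9.53e-07). POLA2, the B subunit of polymerase alpha, averaged 0.674 ± 0.213 CPM at 72 h and 2.44 ± 0.652 CPM at 24 h (SD, n = 4 each) and fell by 1.85 ± 0.35 on the log2 scale, with 42 counts in all at 72 h and 230 at 24 h. Neither gene had a 72 h library inside its 24 h range. POLE3, a small subunit of polymerase epsilon, was the member not called, with 6 counts in all at 72 h and 46 at 24 h (−2.58 ± 1.11, edgeR adjusted p = 0.121). All of its counts at 72 h lay in replicate 2, and without that library its adjusted p was 0.0294.

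Among the clamp loader genes RFC1, the large subunit, gave 3.77, 3.89, 3.11 and 4.28 CPM at 72 h, against 6.17, 8.92, 7.37 and 10.5 CPM at 24 h (−1.13 ± 0.19, edgeR adjusted p = 0.000111). The groups were separate, and the difference was the smallest of the list. RFC3 gave 0.419, 0.300, 0.333 and 0 CPM at 72 h, against 2.73, 4.36, 2.71 and 4.99 CPM at 24 h, a difference of −3.69 ± 0.55 (edgeR adjusted p = 1.89e-05) and the largest of the list. It rests on 18 counts over the 72 h libraries and 333 over the 24 h libraries. RFC5 fell by 1.95 ± 0.44 and RFC2 by 1.59 ± 0.46 on the log2 scale. The RFC2 call was lost when some single libraries were left out, with adjusted p of 0.0525 without 72 h replicate 1, 0.0516 without 72 h replicate 3 and 0.0651 without 24 h replicate 2.

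**Figure D1:**
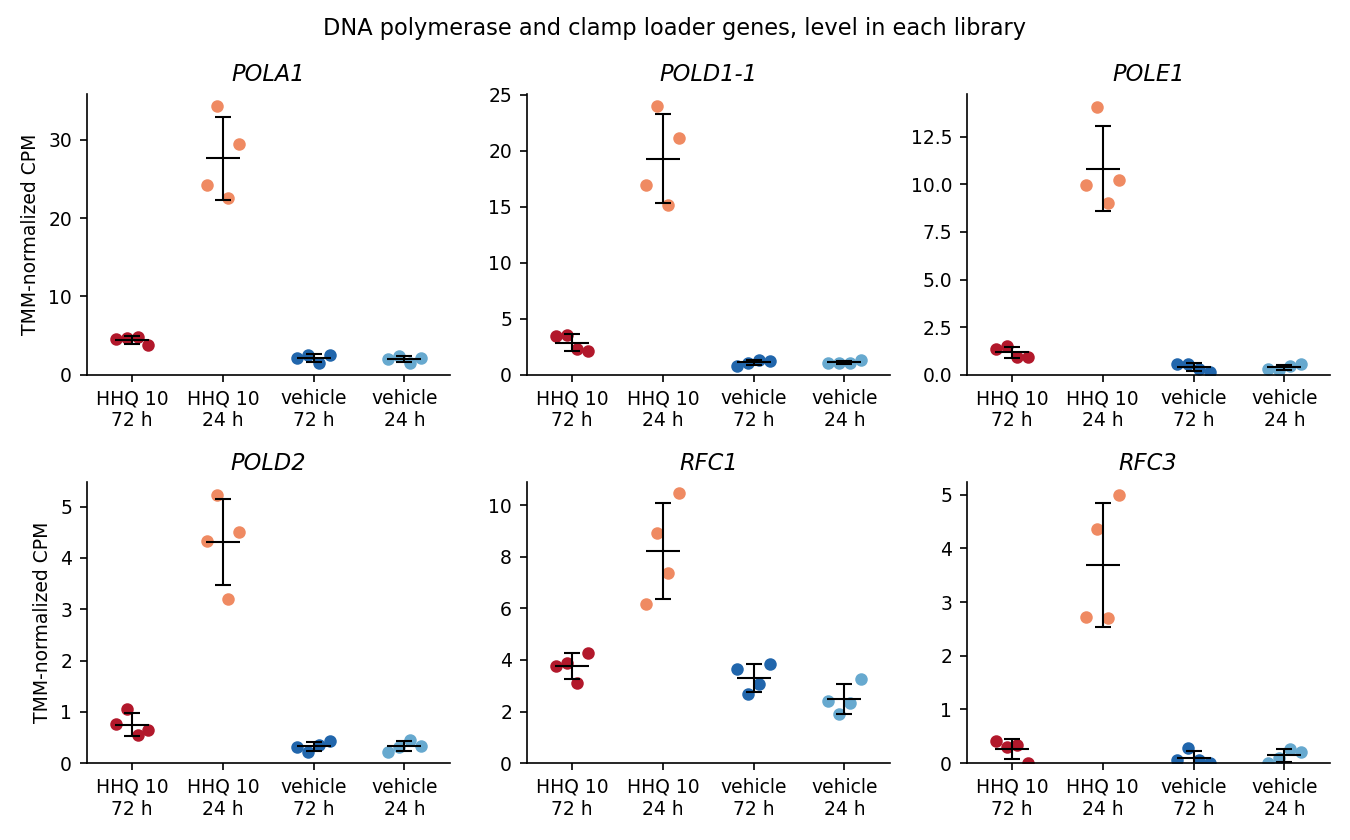
TMM-normalized CPM (linear axis from 0) of 6 replication genes in each library of HHQ 10 at 72 h and 24 h and of vehicle at 72 h and 24 h; points are libraries, bars the mean ± SD of 4. For POLA1 the HHQ 10 cultures sit between 3.73 and 4.77 CPM at 72 h and between 22.6 and 34.3 CPM at 24 h, while vehicle averages 2.13 CPM at 72 h and 1.99 CPM at 24 h.

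Whether the time change differed between HHQ 10 and vehicle was tested gene by gene. It differed for 381 genes (1.44%), with the higher change under HHQ 10 for 54 (0.204%) and the lower for 327 (1.23%). Of the 327, 10 carry a symbol, and 6 of these are replication genes. The difference of the time changes was −3.24 ± 0.60 for POLE1 (edgeR adjusted p = 0.00138). It was −2.91 ± 0.41 for POLD1-2, −2.75 ± 0.37 for POLD1-1, −2.73 ± 0.36 for POLA1, −2.45 ± 0.50 for POLD2 and −1.54 ± 0.27 for RFC1. Their edgeR adjusted p ran from 8.84e-06 for POLA1 to 0.00391 for POLD2. The vehicle side rests on few counts over 4 libraries, from 22 at 72 h and 34 at 24 h for POLD2 to 219 and 239 for RFC1. POLE1 had 27 and 38 there. All 6 calls held in each of the 16 fits that left out 1 library of the 4 groups. With 2 replicates at 72 h, the adjusted p was 0.201 for POLE1 with replicates 3 and 4 and 0.336 for POLD2 with replicates 1 and 2. For RFC3 the difference of −3.20 ± 1.06 was not called (edgeR adjusted p = 0.170).

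VPS46A and ADF also carry a symbol on this side. VPS46A, of the ESCRT-III complex of endosomal sorting, had a difference of −1.22 ± 0.27 (edgeR adjusted p = 0.0116), a call lost in 4 of the 9 alternatives other than leaving out 1 library, up to an adjusted p of 0.298. ADF, actin-depolymerizing factor, had one of −1.32 ± 0.35 at an edgeR adjusted p of 0.0496, which 13 of 16 fits without 1 library put over the threshold, up to 0.142 without vehicle 72 h replicate 2.

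Over the 327 genes the median log2 fold change was −1.67 under HHQ 10 and 0.63 under vehicle, values that chose the genes and are given as a description. Among them 297 were called lower with time under HHQ 10 and 85 higher with time under vehicle. Over the 54 genes of the opposite kind the medians were 0.47 under HHQ 10 and −1.27 under vehicle. HHQ 10 and vehicle also shared part of their time course, which was called for 1884 genes under vehicle (7.11%). Of the 1411 genes higher at 72 h under HHQ 10, 534 (37.8%) were also higher under vehicle, where they made up 51.4% of the 1038 higher genes (3.92% of those tested). Of the 1857 lower genes 319 (17.2%) were also lower under vehicle, 37.7% of its 846 (3.19% of those tested), and 61 were called higher there. No library is shared by these time courses, but the same replicate numbers had the lower TMM factors in both. The part of that shared pattern in the overlap was not tested. In the vehicle calls 55.1% were higher, against 25.8% on library totals and 41.4% with DESeq2 size factors. The vehicle count was 2926 with DESeq2, 1018 without 24 h replicate 3, 1190 without 24 h replicate 1 and 3084 without 24 h replicate 4.

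**Figure D2:**
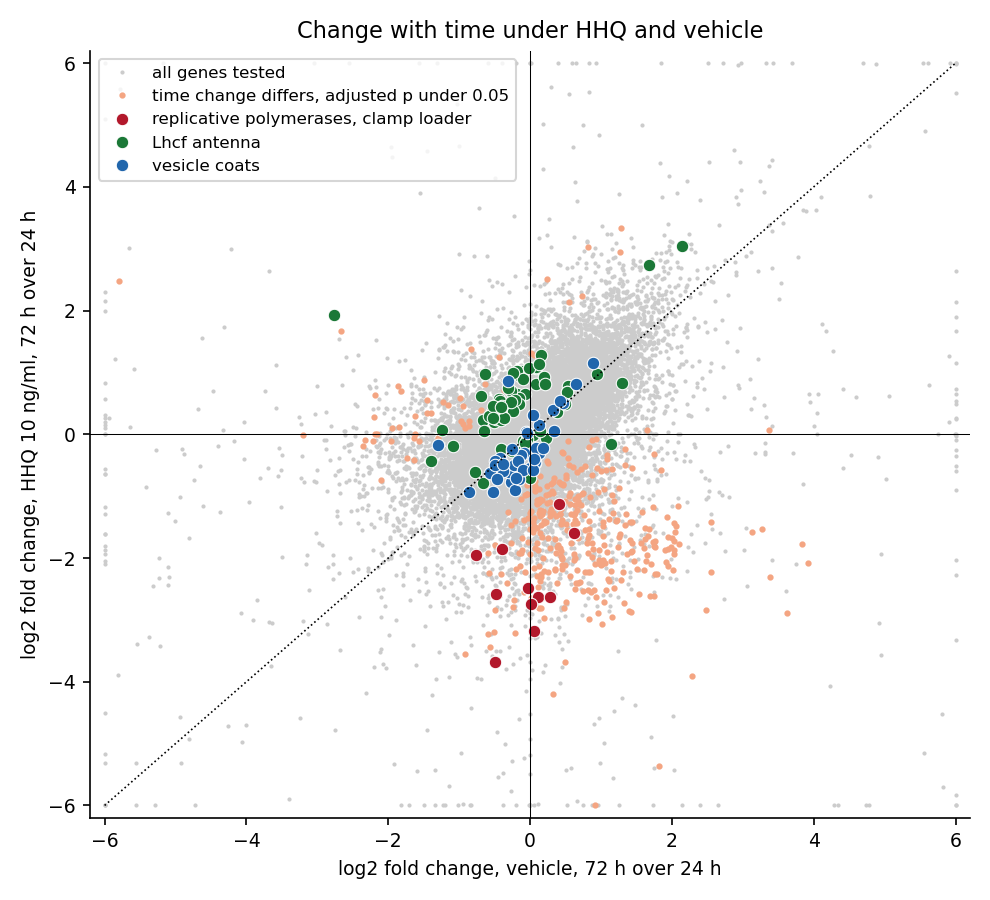
Log2 fold change of 72 h over 24 h under HHQ 10 (vertical) against the same under vehicle (horizontal) for all 26494 genes tested, drawn to at most 6 in either direction; orange points mark genes whose time change differed between them, and larger points the members of gene lists. On the TMM scale the replication genes lie near 0 for vehicle, with a median of 0.01 (−0.39 on library totals), and well under 0 for HHQ 10, with a median of −2.58 (−3.13 on library totals).

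Some recombination and repair genes also fell. Of 14 tested, 4 fell and 0 rose (edgeR; 2 higher and 4 lower at an unadjusted p under 0.05, and 0 and 4 with DESeq2), and the median was −0.31. Of all tested genes 7.01% fell. Top6A, named for a subunit of topoisomerase VI, gave 1.40, 1.30, 0.777 and 1.27 CPM at 72 h, against 6.93, 8.31, 4.21 and 3.92 CPM at 24 h (−2.30 ± 0.40, edgeR adjusted p = 0.000155). The groups were separate. The mismatch repair gene mutS fell by 2.41 ± 0.62, with 34 counts over the 72 h libraries and 292 over the 24 h libraries. The mutS adjusted p was 0.196 with replicates 3 and 4 alone at 72 h.

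TYMK, named for thymidylate kinase, which acts in the synthesis of dTTP, gave 0.489, 0.150, 0.722 and 0 CPM at 72 h, against 2.01, 2.68, 1.46 and 1.55 CPM at 24 h (−2.41 ± 0.67, edgeR adjusted p = 0.0159). All 72 h libraries were lower than those at 24 h, on 23 counts in all at 72 h and 183 at 24 h, and the adjusted p was 0.0698 without 72 h replicate 2. Of 6 genes for other DNA polymerases 0 were called (edgeR; 0 higher and 1 lower at an unadjusted p under 0.05, and 0 and 0 with DESeq2), with a median of −0.12.

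Under HHQ 100 the replication genes went the other way with time, and all but POLE3 were called higher at 72 h (edgeR). Over all genes 1261 rose there (4.76%) and 815 fell (3.08%), 7.84% together. On library totals 792 rose and 232 fell, so that 77.3% of the calls were higher instead of 60.7%. The count in both directions was 3217 with DESeq2, 1369 without HHQ 100 72 h replicate 1, 1278 without 24 h replicate 1 and 1180 without 24 h replicate 2. The count that fell was 277 without 72 h replicate 2 and 393 without 24 h replicate 3, and lay between 292 and 367 without each of the other 3 just named. POLA1 averaged 15.8 ± 4.58 CPM at 72 h and 1.76 ± 0.595 CPM at 24 h (SD, n = 4 each; 3.17 ± 0.26, edgeR adjusted p = 1.38e-09), and POLD1-1 averaged 7.70 ± 2.06 CPM at 72 h and 0.820 ± 0.219 CPM at 24 h (3.23 ± 0.26, edgeR adjusted p = 1.38e-09). The difference of the time changes, HHQ 10 minus HHQ 100, was −5.80 ± 0.36 for POLA1 (edgeR adjusted p = 1.18e-12) and −6.74 ± 0.74 for RFC3 (edgeR adjusted p = 1.18e-07). Of the 11 list members 10 were called lower in this test and 0 higher (edgeR; 0 higher and 11 lower at an unadjusted p under 0.05, and 0 and 10 with DESeq2). Over all genes 2090 were called (7.89%), 801 with the higher change under HHQ 10 (3.02%) and 1289 with the lower (4.87%). On library totals 12.7% of these calls were higher instead of 38.3%. PYC1, pyruvate carboxylase, which replenishes oxaloacetate, also stood out in this test at −4.19 ± 0.39 (edgeR adjusted p = 4.36e-09).

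Of 40 coat genes of vesicle traffic 13 were lower and 0 higher at 72 h (edgeR; 3 higher and 22 lower at an unadjusted p under 0.05, and 1 and 19 with DESeq2), with a median of −0.42, where 7.01% of all tested genes were lower. On library totals 26 were lower and the median was −0.94. COPG1-2, named for a subunit of the COPI coat of Golgi vesicles, gave 27.2, 25.7, 25.2 and 22.3 CPM at 72 h, against 46.1, 52.5, 48.6 and 43.7 CPM at 24 h (−0.93 ± 0.15, edgeR adjusted p = 5.66e-05). The groups did not overlap. AP2A-2 and AP2A-1, named for the large subunit of the AP-2 adaptor of endocytosis, fell by 0.90 ± 0.17 and 0.55 ± 0.12, and SEC23C of the COPII coat by 0.71 ± 0.15. In vehicle 3 coat genes were lower and 0 higher with time (0 higher and 10 lower at an unadjusted p under 0.05, and 0 and 8 with DESeq2), with a median of −0.14. COPG1-2 was among the 3, at −0.52 ± 0.15 (edgeR adjusted p = 0.0278), and AP2A-2, AP2A-1 and SEC23C were not. The difference between the time courses was called for 0 of 40 (edgeR; 2 higher and 6 lower at an unadjusted p under 0.05, and 1 and 1 with DESeq2).

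Of 42 SNARE, SM protein and tether genes 3 fell and 1 rose (edgeR; 3 higher and 7 lower at an unadjusted p under 0.05, and 1 and 5 with DESeq2), with a median of −0.22, a share of lower genes near the 7.01% of all tested genes. On library totals 0 were higher and 8 lower. Vps45, an SM protein of endosomal fusion, gave 27.7, 24.1, 29.6 and 28.4 CPM at 72 h, against 46.1, 56.9, 52.7 and 41.2 CPM at 24 h (−0.84 ± 0.14, edgeR adjusted p = 0.000111), without overlap. COG7, of the Golgi tether, and the SNARE gene VAMP7-6 fell by 0.85 ± 0.26 and 0.69 ± 0.20, and VAMP7-4 rose by 0.81 ± 0.27. These 3 calls were lost in 3, 2 and 6 of 8 fits without 1 library, with adjusted p up to 0.121 without 72 h replicate 2 for COG7, 0.0784 without 72 h replicate 1 for VAMP7-6 and 0.182 without 24 h replicate 2 for VAMP7-4. VAMP7-6 and VAMP7-4 were called in the same directions under vehicle (−0.74 ± 0.20 and 0.98 ± 0.28). Vps45 and COG7 were not called there.

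In the ESCRT, retromer and vacuolar sorting list 2 of 22 fell and 0 rose (edgeR; 5 higher and 3 lower at an unadjusted p under 0.05, and 1 and 3 with DESeq2), again not far from the 7.01% of all tested genes, and on library totals 4 were lower. VPS46A gave 10.9, 11.1, 8.94 and 8.38 CPM at 72 h, against 19.4, 27.2, 17.8 and 20.1 CPM at 24 h (−1.10 ± 0.19, edgeR adjusted p = 0.000191). Each culture at 72 h lay below those at 24 h, while vehicle averaged 8.01 ± 0.555 CPM at 72 h and 7.36 ± 1.37 CPM at 24 h. VPS26, of the retromer, fell by 0.70 ± 0.15. Among 31 Rab, Arf and Arl GTPase genes 3 fell and 0 rose (edgeR; 1 higher and 6 lower at an unadjusted p under 0.05, and 0 and 4 with DESeq2), likewise close to that share. The list's median was 0.25, or −0.35 on library totals, where 5 were lower. ARL1, a GTPase of the trans-Golgi, gave 26.1, 32.01, 31.9 and 31.2 CPM at 72 h, against 56.8, 66.6, 57.1 and 55.0 CPM at 24 h (−0.96 ± 0.14, edgeR adjusted p = 1.34e-05), with no overlap. Rab5a, of early endosomes, and Rab1c, named for a Rab of early secretory transport, fell by 0.78 ± 0.16 and 0.67 ± 0.19.

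Genes of the V-type ATPase, the proton pump of vacuoles and other endomembranes, were among those lower at 72 h in both time courses. Under HHQ 10 5 of 20 fell and 0 rose (edgeR; 0 higher and 7 lower at an unadjusted p under 0.05, and 0 and 7 with DESeq2), and under vehicle 7 fell and 0 rose (0 higher and 10 lower at an unadjusted p under 0.05, and 0 and 9 with DESeq2). Of all tested genes 7.01% fell under HHQ 10 and 3.19% under vehicle. ATPVC1, named for the C subunit, gave 62.1, 53.1, 56.6 and 59.4 CPM at 72 h, against 104, 117, 96.6 and 72.4 CPM at 24 h (−0.75 ± 0.19, edgeR adjusted p = 0.00732), again without overlap. The HHQ 10 count was 2 or 3 without any single library other than 24 h replicate 4, 7 without that one, and 19 on library totals. The difference between the courses was called for 0 members (edgeR; 0 higher and 0 lower at an unadjusted p under 0.05, and 0 and 0 with DESeq2).

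**Figure D3:**
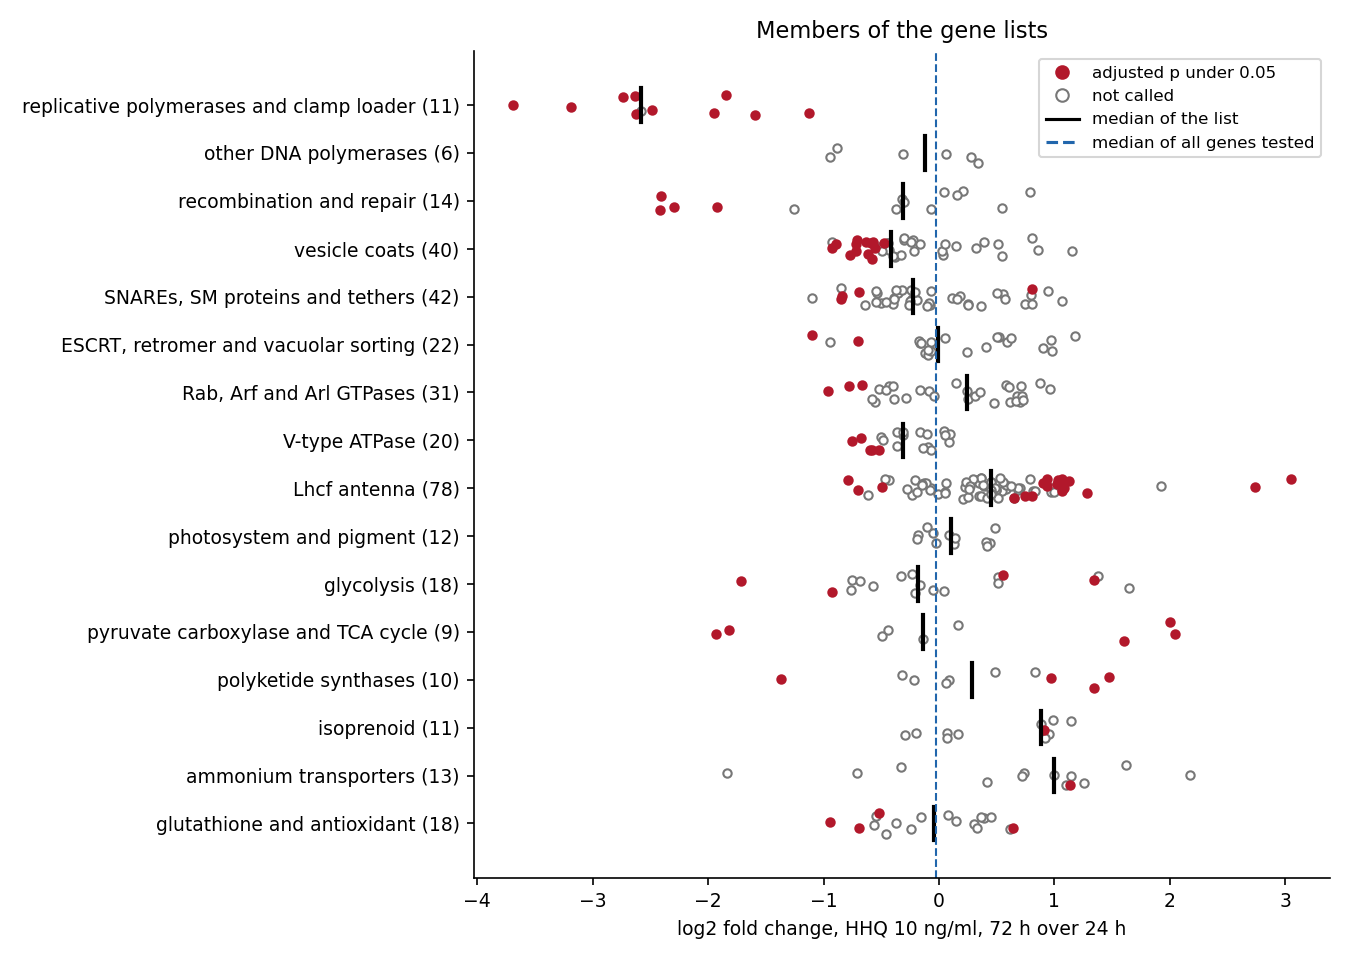
Log2 fold change of 72 h over 24 h under HHQ 10, on the TMM scale, for every tested member of 16 gene lists; filled points are called, black bars are list medians and the dashed line is the median of all genes tested, −0.02. The replication list has a median of −2.58 and the Lhcf list one of 0.45, which on library totals is −0.08; the medians of the Rab, photosystem and polyketide lists also lie under 0 on library totals.

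Several genes of central carbon metabolism rose, and they rose in vehicle too. PEPCK_1, phosphoenolpyruvate carboxykinase of gluconeogenesis, gave 301, 312, 146 and 155 CPM at 72 h, against 52.8, 43.5, 52.5 and 73.3 CPM at 24 h (2.04 ± 0.31, edgeR adjusted p = 2.07e-05). At 72 h replicates 1 and 2 were well above replicates 3 and 4, and all 4 exceeded the 24 h cultures. In vehicle it averaged 324 ± 83.3 CPM at 72 h and 111 ± 32.3 CPM at 24 h (1.55 ± 0.30), and the difference of the time changes, 0.49 ± 0.42, was not called (edgeR adjusted p = 0.863). PEPCK_2, which may share reads with the first copy, rose by 2.00 ± 0.35.

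ICL1, isocitrate lyase of the glyoxylate cycle, was more even across replicates, with 813, 939, 763 and 821 CPM at 72 h, against 248, 246, 333 and 272 CPM at 24 h (1.60 ± 0.20, edgeR adjusted p = 1.09e-06). The libraries were well separated, and vehicle averaged 1213 ± 144 CPM at 72 h and 505 ± 124 CPM at 24 h. PYC1 went the other way, with 3.21, 3.40, 2.55 and 2.91 CPM at 72 h, against 6.93, 9.99, 12.4 and 13.3 CPM at 24 h (−1.82 ± 0.28, edgeR adjusted p = 3.04e-05). IDH1, isocitrate dehydrogenase, which was chosen after its values were seen, fell by 1.94 ± 0.45, and both genes were also lower with time under vehicle (−0.97 ± 0.30 for PYC1 and −1.45 ± 0.45 for IDH1). Of 9 pyruvate carboxylase and TCA cycle genes 3 rose and 2 fell under HHQ 10, as 3 rose and 3 fell under vehicle. Of all tested genes 5.33% rose and 7.01% fell under HHQ 10, and 3.92% rose and 3.19% fell under vehicle.

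In glycolysis 2 of 18 genes rose and 2 fell, where 5.33% of all tested genes rose and 7.01% fell. On library totals 1 was higher and 5 lower in this list. The gene 16PFK1, with a phosphofructokinase symbol, gave 38.97, 74.0, 39.1 and 49.9 CPM at 72 h, against 134, 157, 163 and 210.4 CPM at 24 h (−1.72 ± 0.29, edgeR adjusted p = 0.000107). The gene 26PFK1 went the opposite way, with 329, 397, 188 and 221 CPM at 72 h, against 113, 109.5, 104 and 122 CPM at 24 h (1.34 ± 0.25, edgeR adjusted p = 0.000488). Neither pair of groups overlapped, and both genes were called in the same directions under vehicle. The phosphoglycerate kinase genes were also opposed: PGK1 fell by 0.93 ± 0.21 and PGK_2 rose by 0.55 ± 0.19, a call that 6 of 8 fits without 1 library lost, up to an adjusted p of 0.177 without 72 h replicate 2. On library totals the value for PGK_2 was 0.00.

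Lhcf37 and PTA1 had the largest rises among the genes with a symbol that the naming rule takes. PTA1 gave 77.8, 74.8, 27.1 and 29.95 CPM at 72 h, against 5.23, 6.17, 5.26 and 11.2 CPM at 24 h (2.92 ± 0.41, edgeR adjusted p = 7.36e-06). Replicates 1 and 2 were the high ones at 72 h and replicate 4 the high one at 24 h. MIP2 gave 271, 354, 152 and 165 CPM at 72 h, against 43.4, 36.7, 47.0 and 71.1 CPM at 24 h (2.25 ± 0.33, edgeR adjusted p = 1.93e-05), with the same split at 72 h. GLN5, a glutamine synthetase gene, rose by 1.63 ± 0.38, CLC-3, of the chloride channel family, by 1.75 ± 0.39, and CIPK1, named for a plant protein kinase that acts with calcium sensors, by 1.60 ± 0.45. The CIPK1 adjusted p was 0.0629 without 72 h replicate 4 and 0.0905 without 24 h replicate 2. PTA1, MIP2, GLN5 and CLC-3 were also called higher with time under vehicle, and none of the 5 was called in the difference of the time changes (edgeR adjusted p from 0.536 for PTA1 to 0.975 for GLN5).

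**Figure D4:**
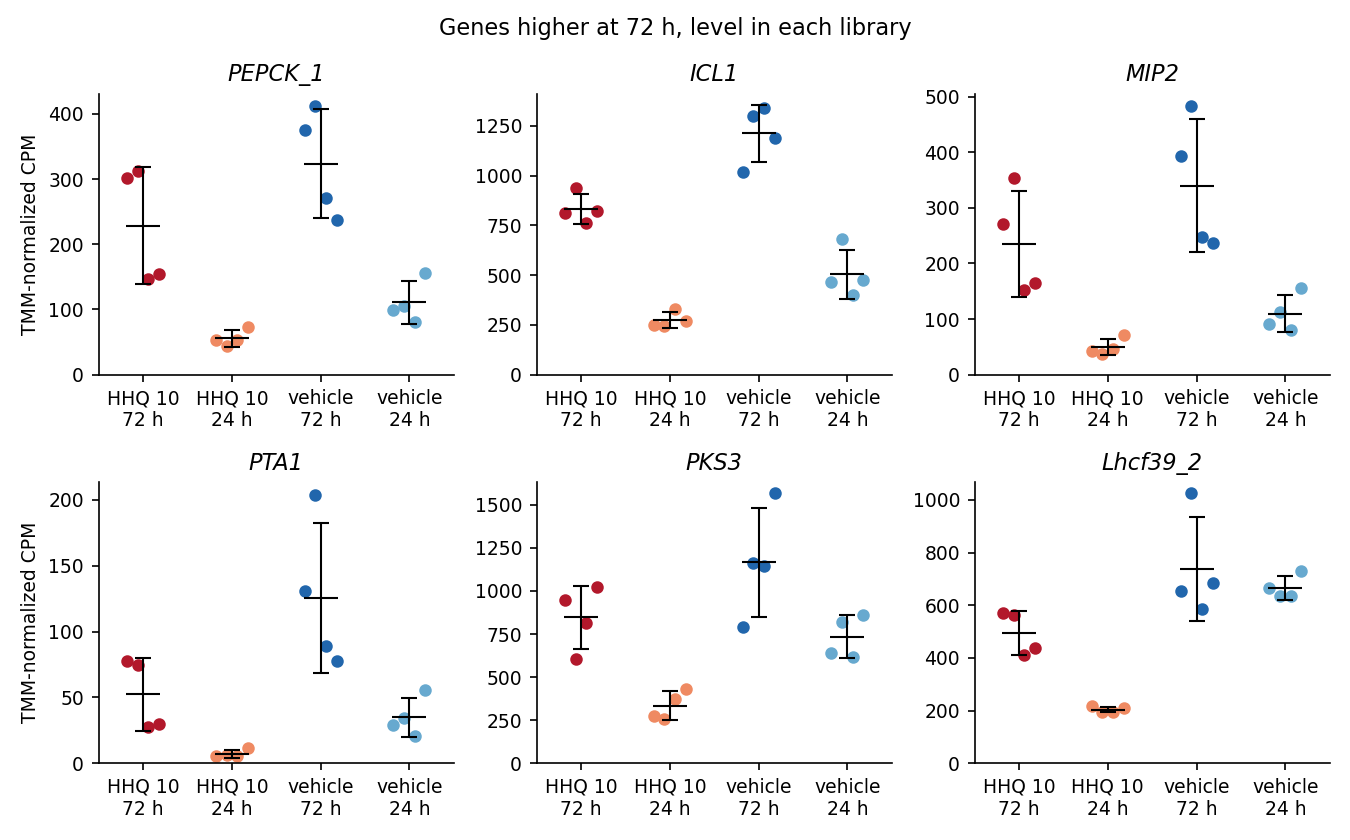
TMM-normalized CPM (linear axis from 0) of 6 genes that were higher at 72 h under HHQ 10, in HHQ 10 at 72 h and 24 h and in vehicle at 72 h and 24 h; points are libraries, bars the mean ± SD of 4. PEPCK_1, MIP2 and PTA1 split at 72 h into a high and a low pair of libraries, while ICL1 lies between 763 and 939 CPM.

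On the TMM scale antenna genes had more rises than falls under HHQ 10, where 5.33% of all tested genes rose and 7.01% fell. Of 78 tested Lhcf genes 15 were higher at 72 h and 3 lower (edgeR; 37 higher and 3 lower at an unadjusted p under 0.05, and 23 and 3 with DESeq2), with a median of 0.45, or −0.08 on library totals, where the median of all genes was −0.52. Under vehicle 2 were higher and 2 lower (edgeR; 3 higher and 24 lower at an unadjusted p under 0.05, and 2 and 14 with DESeq2), with a median of −0.24. On library totals 8 were higher and 4 lower under HHQ 10, and 1 higher and 33 lower under vehicle, where the median was −0.59 and that of all genes −0.36. Lhcf39_2 gave 569.5, 561, 409.8 and 437 CPM at 72 h, against 215, 193, 195 and 209.6 CPM at 24 h (1.28 ± 0.20, edgeR adjusted p = 5.22e-05). The HHQ 10 groups did not overlap, and vehicle averaged 737 ± 197 CPM at 72 h and 666 ± 44.7 CPM at 24 h. It was the 1 antenna gene whose time change was called different from vehicle (1.13 ± 0.29, edgeR adjusted p = 0.0323), while the list had 46 higher and 1 lower at an unadjusted p under 0.05, and 23 and 0 with DESeq2. That call was lost in 8 of 16 fits without 1 library, up to an adjusted p of 0.0880 without vehicle 72 h replicate 3.

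Lhcf24 gave 3961, 4727, 2949 and 3632 CPM at 72 h, against 1529, 1612, 1833 and 2512 CPM at 24 h (1.03 ± 0.24, edgeR adjusted p = 0.00407). Replicate 4 was the highest at 24 h and still below every 72 h culture. Lhcf37 rose by 3.05 ± 0.66 and Lhcf38 by 2.73 ± 0.55, and both were also higher with time under vehicle. The 3 that fell, Lhcf46_1, Lhcf48 and Lhcf49, changed by −0.49, −0.79 and −0.70. Members of this family resemble one another, so single values can include reads of other members. The count of 15 was 10 without 24 h replicate 1 or replicate 2, 23 without 24 h replicate 4, 26 with replicates 1 and 2 alone at 72 h and 1 with replicates 3 and 4 alone. The count of 3 lower was 1 without 72 h replicate 2 or 4 or 24 h replicate 1 or 2.

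A share of counts needs no scaling between libraries. Lhcf genes took 7.89%, 8.72%, 10.02% and 10.2% of all counts in the HHQ 10 cultures at 72 h, against 7.23%, 7.60%, 8.44% and 7.80% at 24 h. The ranges overlapped, with means of 9.19% ± 1.08 at 72 h and 7.77% ± 0.506 at 24 h (SD, n = 4 each), a difference of 1.43 percentage points. In vehicle the share was 9.77% ± 0.992 at 72 h and 13.5% ± 0.621 at 24 h, a difference of −3.69 points. Replicates 3 and 4 held the larger shares at 72 h, and with them alone the HHQ 10 difference was 2.32 points, against 0.537 with replicates 1 and 2. The 12 photosystem and pigment genes gave 0 calls (edgeR; 2 higher and 0 lower at an unadjusted p under 0.05, and 1 and 0 with DESeq2), with a median of 0.11, or −0.39 on library totals.

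Polyketide synthase genes gave 3 that rose and 1 that fell of 10, with a median of 0.29, or −0.22 on library totals. Of all tested genes 5.33% rose and 7.01% fell. PKS3 gave 947, 607, 815 and 1025 CPM at 72 h, against 274, 255, 375 and 433 CPM at 24 h (1.34 ± 0.23, edgeR adjusted p = 0.000155), and PKS5 gave 9.57, 5.94, 5.05 and 6.28 CPM at 72 h, against 20.1, 22.9, 9.88 and 16.8 CPM at 24 h (−1.37 ± 0.30, edgeR adjusted p = 0.00256). Neither gene's groups overlapped. PKS9 and PKS11 rose by 0.97 ± 0.24 and 1.47 ± 0.43, calls that 1 and 5 of 8 fits without 1 library lost, up to adjusted p of 0.0513 without 72 h replicate 1 for PKS9 and 0.121 without 72 h replicate 1 for PKS11.

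Other metabolic and transport genes changed singly. In the list of nitrate, urea and glutamine genes 2 of 15 rose and 1 fell, and of 13 ammonium transporter genes 1 rose, where 5.33% of all tested genes rose and 7.01% fell. On library totals 1 was higher and 7 lower in the nitrate, urea and glutamine list. DUR3, a urea transporter, gave 2.09, 0.849, 1.11 and 1.18 CPM at 72 h, against 0.0894, 0.201, 0 and 0.736 CPM at 24 h (2.69 ± 0.83, edgeR adjusted p = 0.0289). The groups did not overlap at these low levels, and 4 of 8 fits without 1 library lost the call, up to an adjusted p of 0.107 without 24 h replicate 3. DUR3 rose under vehicle as well, by 3.42 ± 0.77 (edgeR adjusted p = 0.00492). NII1, nitrite reductase, changed by −1.29 ± 0.37 under HHQ 10, with adjusted p of 0.0521 without 72 h replicate 3 and 0.0641 without 24 h replicate 2, and by −1.34 ± 0.39 under vehicle.

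Several rises shared a pattern across replicates. CA1, with a carbonic anhydrase symbol, gave 70.7, 103, 26.04 and 28.8 CPM at 72 h, against 15.2, 13.8, 16.8 and 33.5 CPM at 24 h (1.53 ± 0.52, edgeR adjusted p = 0.0476). NCX1, named for a sodium and calcium exchanger, gave 40.5, 49.3, 17.99 and 20.4 CPM at 72 h, against 9.97, 9.05, 10.3 and 23.5 CPM at 24 h (1.29 ± 0.41, edgeR adjusted p = 0.0370). For both genes replicates 1 and 2 were high at 72 h, and replicate 4 at 24 h lay inside the 72 h range. AMT21, an ammonium transporter, and HMGS1, which makes HMG-CoA for isoprenoids, rose by 1.14 ± 0.36 and 0.91 ± 0.29 and also had a 24 h replicate 4 inside the 72 h range. Each of the 4 calls was lost in 5 of 8 fits without 1 library, with adjusted p up to 0.240 without 72 h replicate 2 for CA1, 0.170 without 72 h replicate 2 for NCX1, 0.154 without 24 h replicate 2 for AMT21 and 0.219 without 72 h replicate 2 for HMGS1.

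ADF belongs to the actin list, in which 2 of 17 fell and 0 rose (edgeR; 2 higher and 2 lower at an unadjusted p under 0.05, and 0 and 2 with DESeq2). The median of the list was 0.12, and 7.01% of all tested genes fell and 5.33% rose. On library totals 5 genes of the list were lower. ADF gave 495, 611, 349.5 and 339 CPM at 72 h, against 1087, 1275, 995 and 1211 CPM at 24 h (−1.35 ± 0.25, edgeR adjusted p = 0.000406). The groups were wide apart, and vehicle averaged 400.1 ± 157 CPM at 72 h and 407 ± 68.8 CPM at 24 h. ARPC3, of the Arp2/3 complex that branches actin filaments, fell by 0.63 ± 0.18, with an adjusted p of 0.0548 without 72 h replicate 1. TBCD, a tubulin folding cofactor, rose by 1.13 ± 0.29, with an adjusted p of 0.0589 without 72 h replicate 2.

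Of 18 glutathione and antioxidant genes 3 fell and 1 rose, where 7.01% of all tested genes fell and 5.33% rose. On library totals 0 were higher and 6 lower in this list, where 530 of all 26494 tested genes were higher and 3571 lower. SOD2A, a superoxide dismutase gene, gave 113, 126, 99.8 and 107 CPM at 72 h, against 226, 239, 209 and 181 CPM at 24 h (−0.94 ± 0.19, edgeR adjusted p = 0.00122). GPX4, of the glutathione peroxidase family, fell by 0.70 ± 0.20, with adjusted p of 0.0576 without 72 h replicate 1 and 0.0901 without 72 h replicate 2, and SOD2B fell by 0.52 ± 0.16, a call lost in 5 of 8 fits without 1 library. GSH5 rose by 0.64 ± 0.18, with an adjusted p of 0.0708 without 24 h replicate 2. Under vehicle 2 genes of the list rose and 3 fell, where 3.92% of all tested genes rose and 3.19% fell. SOD2A and SOD2B were called lower under vehicle too (−0.84 ± 0.19 and −0.67 ± 0.16), and GPX4 and GSH5 were not called there. The pentose phosphate and aldehyde dehydrogenase lists, with 6 and 9 tested genes, held 0 calls (edgeR; 0 higher and 1 lower at an unadjusted p under 0.05, and 0 and 0 with DESeq2 for the first list, and 2 higher and 0 lower at an unadjusted p under 0.05, and 0 and 0 with DESeq2 for the other).

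In the remaining lists few genes were called, where 5.33% of all tested genes rose and 7.01% fell. Of 19 calcium and ion transport genes 2 fell, ECA1 by 1.07 ± 0.24 and NHA1 by 1.11 ± 0.28, and NCX1 rose. On library totals 0 were higher and 6 lower in this list. ECA1 takes its symbol from a calcium pump of the endoplasmic reticulum in Arabidopsis. Of 6 urea cycle genes ASL1, argininosuccinate lyase, fell by 0.48 ± 0.15, a call lost in 6 of 8 fits without 1 library. KAS1, a ketoacyl synthase of fatty acid synthesis, rose by 0.94 ± 0.29, lost in 5 of 8. It was also called higher under vehicle (1.24 ± 0.29, edgeR adjusted p = 0.00739). Of 10 genes with ECH symbols ECH1 and ECH6 fell by 1.09 ± 0.24 and 0.87 ± 0.17, and ECH12 rose by 0.80 ± 0.24. Of these 3 only ECH6 was called under vehicle, at −0.53 (edgeR adjusted p = 0.0479).

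The genes FADS1 and FADS2, with fatty acid desaturase symbols, fell under HHQ 10 and under vehicle. FADS1 gave 76.5, 74.5, 59.0 and 66.7 CPM at 72 h, against 208, 210.2, 150.2 and 124 CPM at 24 h (−1.32 ± 0.20, edgeR adjusted p = 2.07e-05). In vehicle it averaged 34.7 ± 2.92 CPM at 72 h and 71.1 ± 4.997 CPM at 24 h (−1.04 ± 0.20), so the HHQ 10 cultures had the higher mean at each time.

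How far HHQ 10 cultures still stood from vehicle was asked at each time. Against vehicle 251 genes differed at 72 h (0.947%), 178 higher (0.672%) and 73 lower (0.276%), and 3114 differed at 24 h (11.8%), 1957 higher (7.39%) and 1157 lower (4.37%). On library totals 123 were higher and 12 lower at 72 h, and 1825 and 286 at 24 h. The 72 h count was 163 without HHQ 10 replicate 4, 165 without vehicle replicate 1, and 578 with DESeq2. The libraries at 72 h and at 24 h are separate, while the comparison over time above shares its HHQ 10 libraries with both. Of the 178 genes higher at 72 h 160 (89.9%) were also higher at 24 h, which is 8.18% of the genes higher then. Of the 73 lower genes 47 (64.4%) were also lower at 24 h, 4.06% of the lower genes then. For the genes higher at 24 h the median log2 fold change over vehicle was 0.40 at 72 h and 1.22 at 24 h, the time whose values chose them.

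Of genes with a symbol 14 were higher than vehicle at 72 h and 0 lower. Of the 11 replication genes 2, POLD1-1 and POLA1, were called higher than vehicle at 72 h and 11 at 24 h. At 72 h 7 were higher and 0 lower at an unadjusted p under 0.05 (edgeR), and 4 and 0 with DESeq2. The median of the list over vehicle at 72 h was 1.14, against −0.01 over all genes tested. Of the 14 symbols 5 were called in each of 11 alternatives. POLD1-1 was above vehicle by 1.39 ± 0.27 at 72 h (edgeR adjusted p = 0.00409) and by 4.14 ± 0.27 at 24 h. PYC1 was above it by 1.50 ± 0.30 at 72 h and 2.34 ± 0.28 at 24 h, and Top6A by 2.84 ± 0.51 and 4.36 ± 0.45 at these times. The small GTPase copies Arf4-1 and Arf4-2, which can share reads, were above vehicle by 1.61 ± 0.24 and 1.90 ± 0.25 at 72 h and by 2.05 ± 0.25 and 2.31 ± 0.26 at 24 h. Their time change under HHQ 10 was 0.15 ± 0.24 and 0.36 ± 0.24 and was not called (edgeR adjusted p = 0.721 and 0.335).

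The remaining 9, like Arf4-1 and Arf4-2 named for this comparison alone where no rule took them, were FADS1, FADS2, TK, NII1, FH, PKS1, POLA1, 16PFK1 and SOD2A. FADS1, FADS2 and TK lost their calls on library totals alone (adjusted p = 0.107, 0.0921 and 0.144). The other 6 lost them in 2 to 7 of 8 fits without 1 library. The highest adjusted p were 0.0621 without HHQ 10 replicate 1 for NII1, 0.0666 without vehicle replicate 4 for FH (fumarate hydratase), 0.11995 without vehicle replicate 1 for PKS1, 0.131 without vehicle replicate 3 for POLA1, 0.188 without HHQ 10 replicate 2 for 16PFK1 and 0.148 without vehicle replicate 1 for SOD2A. PKS1 was the 1 gene of these not called at 24 h (0.56 ± 0.28, edgeR adjusted p = 0.221), against 1.21 ± 0.29 at 72 h. Among 78 antenna genes 0 were called lower or higher than vehicle at 72 h (edgeR; 2 higher and 2 lower at an unadjusted p under 0.05, and 0 and 0 with DESeq2), with a median of −0.12, and 45 were lower at 24 h, with a median of −0.83.

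**Figure D5:**
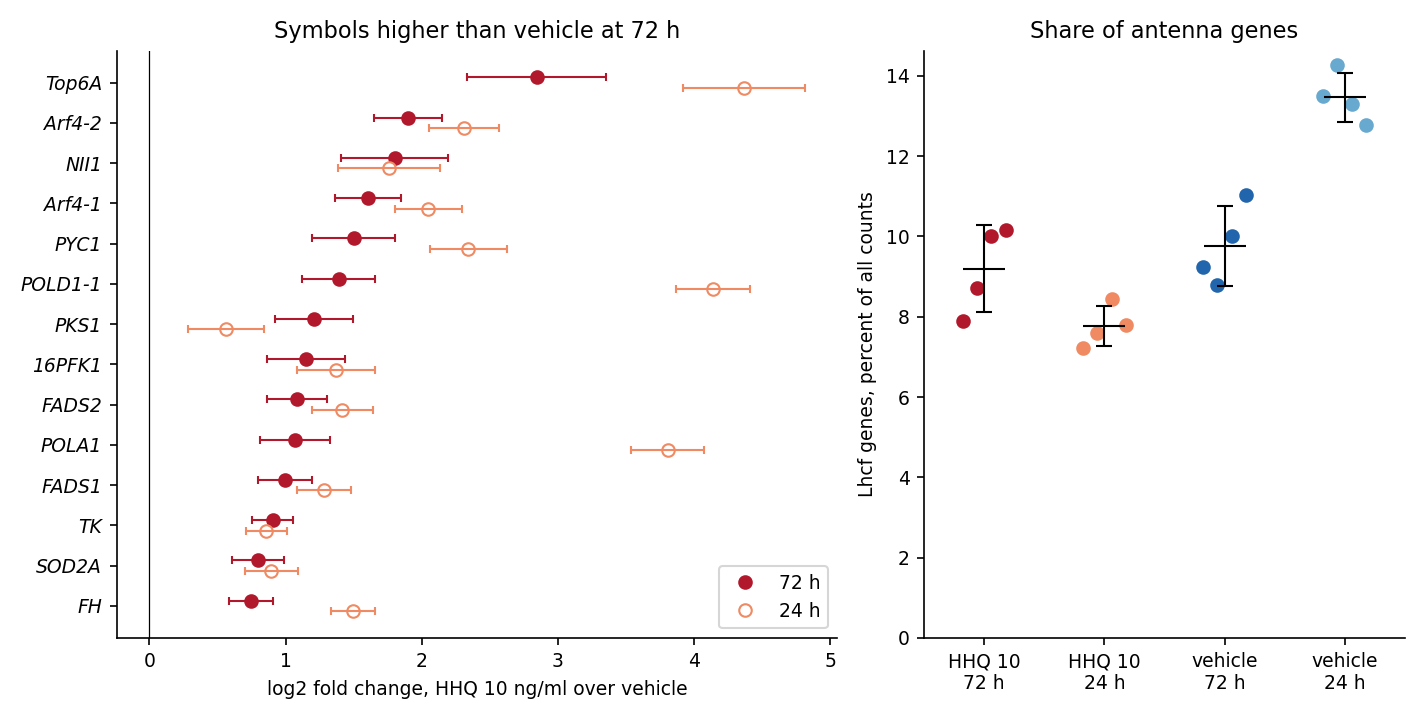
Left, log2 fold change of HHQ 10 over vehicle for the 14 genes with a symbol that were higher at 72 h, at 72 h (filled) and 24 h (open), with bars of 1 standard error; right, Lhcf genes as a percent of all counts (axis from 0) in each library, with mean ± SD of 4. POLD1-1 stands at 1.39 at 72 h and 4.14 at 24 h, and the mean Lhcf share of the HHQ 10 cultures is 9.19% at 72 h and 7.77% at 24 h.

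Genes without a symbol had the largest differences. They also made up most of the calls, but only 661 of the 26494 tested genes carry a symbol. Of those 661 genes 44 were called higher and 82 lower. EMIHUDRAFT_73784 had 0 counts over the 4 libraries at 72 h and 216 over the 4 at 24 h, at least 44.1-fold lower with 3 counts over the 4 libraries as the floor. At 24 h it gave 3.13, 3.29, 1.72 and 0.327 CPM, with replicate 4 the low one. EMIHUDRAFT_226910 likewise had 0 counts at 72 h and 242 at 24 h, at least 49.4-fold lower, and 6 of 8 fits without 1 library lost its call, up to an adjusted p of 0.117 without 24 h replicate 2. The floor covers counting error only.

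EMIHUDRAFT_196889 rose, with 11.7, 7.29, 9.22 and 8.83 CPM at 72 h, against 0.223, 0.201, 0.426 and 0.245 CPM at 24 h (4.91 ± 0.44, edgeR adjusted p = 6.22e-09). Libraries without overlap were a condition of naming it, and in vehicle it averaged 17.6 ± 2.08 CPM at 72 h and 0.395 ± 0.316 CPM at 24 h. EMIHUDRAFT_435171 had 173 counts over the 72 h libraries and 4 over the 24 h libraries, and it rose under vehicle as well (4.87 ± 0.55, edgeR adjusted p = 7.39e-07).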

How the data were processed

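RNA of 36 Emiliania huxleyi cultures was sequenced from a stranded mRNA capture kit, per the labels' protocols. The authors deposited a table of estimated counts for 37212 genes, of which 45.8% of values are not whole. Trimmomatic 0.38 and Salmon 0.12.0 are named per the submitters' processing notes, and which reference transcripts they used is not given in the sources used here. Symbols came from RefSeq (37202 identifiers matched, 778 with a symbol).

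Counts were rounded, filtered with filterByExpr (26494 genes kept), scaled by TMM and fitted once over the 36 libraries and 9 groups with edgeR 4.0.16 (quasi-likelihood F test, R 4.3.3, limma 3.58.1), with the Benjamini-Hochberg adjustment over all genes and a threshold of 0.05. The standard error is the log2 fold change divided by the square root of F. Alternatives were DESeq2 1.42.0, other scalings and filters, the compared groups alone, a replicate block, pairs of 72 h replicates and leaving out each library. Those on the comparison with vehicle at 72 h were added after seeing the data.

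Named genes are the 10 rising and 10 falling symbols with the largest change, a mean of at least 1 CPM and no overlap, up to 4 with the smallest p of each list, 2 identifiers each way, the 5 largest differences of time change each way against vehicle and HHQ 100, and all replication genes. The members and lists were chosen with earlier results of these data known, and genes outside the rule were chosen after their values were seen. Results on a few further genes are not reported here. The fitting step was tested on simulated data. It recovered 23 of 100 genes changed 2-fold and 89 of 100 changed 4-fold, with 5 false calls, so smaller changes can often be missed. Only those genes differed in the simulation, against 3268 calls in the data, and the pattern shared by replicate numbers was not simulated. The rates of recovery and of false calls therefore need not hold for the real libraries. The series' design text calls the replicates biological. Figures were drawn with matplotlib 3.10.9.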

Additional observations from a re-analysis of the deposited data

Results flagged for a closer look

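In 11 of 172 groups of 4 libraries examined for the named genes, 1 library stood far from the other 3 (Dixon's test), and chance alone flags about 1 in 20 groups. In 7 of them the library was 24 h replicate 4. It was the highest for PTA1 at 11.2 CPM, Lhcf38 at 9.98 CPM, HMGS1 at 49.8 CPM, PKS11 at 69.0 CPM, NCX1 at 23.5 CPM and CA1 at 33.5 CPM, and the lowest for PGK_2 at 342 CPM. POLA1 was lowest in 72 h replicate 4, at 3.73 CPM. ARL1 was lowest in 72 h replicate 1, at 26.1 CPM. POLE3 was highest in 72 h replicate 2, at 0.300 CPM. RFC5 was lowest in 72 h replicate 3, at 0.389 CPM. The part of 24 h replicate 4 and of its low TMM factor in these values was not tested.

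The change from 24 h to 72 h differed between HHQ 10 and vehicle, tested as an interaction (edgeR adjusted p under 0.05), for 9 of the named genes reported here. The difference of the log2 fold changes was −3.24 for POLE1, −2.75 for POLD1-1, −2.91 for POLD1-2, −2.73 for POLA1, −2.45 for POLD2, 1.13 for Lhcf39_2, −1.22 for VPS46A, −1.32 for ADF and −1.54 for RFC1.

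Among the named genes reported here it differed between HHQ 10 and HHQ 100 for 35, with the lower change under HHQ 10 for 23. Among replication genes the difference was −6.74 for RFC3, −5.88 for POLE1, −5.97 for POLD1-1, −5.76 for POLD1-2, −5.80 for POLA1, −4.68 for POLD2, −5.15 for POLA2, −1.93 for RFC1, −3.96 for RFC2 and −4.88 for RFC5. It was −5.11 for mutS, −4.31 for TYMK, −8.61 for EMIHUDRAFT_73784, −1.84 for 16PFK1, −1.88 for FADS1 and −1.88 for FADS2. For the others it was −1.73 for NII1, −4.19 for Top6A, −0.77 for COPG1-2, −0.75 for Vps45, −1.07 for VPS46A, −1.36 for ARPC3 and −4.19 for PYC1. The change was the higher under HHQ 10 for 12, by 1.45 for MIP2, 4.73 for EMIHUDRAFT_435171, 2.84 for EMIHUDRAFT_196889, 2.42 for Lhcf39_2, 1.18 for Lhcf24, 1.28 for 26PFK1, 0.89 for PGK_2, 1.02 for PKS3, 1.65 for STXPM-2, 1.57 for Lhcf25_2, 1.52 for Lhcf25_1 and 1.51 for Lhcf44. The value for EMIHUDRAFT_73784 rests on a group with 0 counts and depends on the prior count of the fit.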

How the results depend on the processing

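No called log2 fold change of a named gene, nor the Lhcf share difference, changed sign under an alternative, but that of PGK_2 was near 0 on library totals. On library totals the values of STXPM-2 and Lhcf44, not called over time, were −0.08 and −0.09 in place of 0.36 and 0.48, and these list medians changed sign: Lhcf antenna −0.08 in place of 0.45, photosystem and pigment −0.39 in place of 0.11, pentose phosphate −0.48 in place of 0.07, polyketide synthases −0.22 in place of 0.29, fatty acid −0.54 in place of 0.03, Rab, Arf and Arl GTPases −0.35 in place of 0.25, and actin and Arp2/3 −0.48 in place of 0.12. The number of genes called over time under HHQ 10 was 753 with a replicate block, 1401 with replicates 3 and 4 alone at 72 h and 1878 to 4644 without 1 library, in place of 3268. The genes called in common with the 3268, in the same direction, made up 99.8% of them with DESeq2, 72.7% on library totals and 22.3% with the block. Correlations of same-numbered HHQ 10 libraries, as deviations from the group means, were −0.0341, −0.151, 0.312 and −0.158 for replicates 1 to 4, so the numbers were not taken to pair the samples, and the block result is given for completeness. Of the 4 numbers 1 correlated best with itself. The count of time changes that differed from vehicle, 381, was 240 on library totals, 690 with the DESeq2 Wald test, 223 with the compared groups alone, 248 with the block, 166 with 72 h replicates 1 and 2, 219 with replicates 3 and 4, and 273 to 429 without 1 library. Against HHQ 100 the count of 2090 was 1301 with replicates 1 and 2, 1259 with replicates 3 and 4 and 1650 to 2071 without 1 library. Lhcf genes called higher numbered 8 on library totals, 23 with DESeq2, 10 with the compared groups alone, 2 with the block, 26 and 1 with the pairs of replicates, and 10 to 23 without 1 library. Those called lower numbered 1 with the groups alone and with either pair, 0 with the block and 1 to 3 without 1 library. The Lhcf share difference was 0.537 and 2.32 points with the pairs and 1.11 to 1.86 without 1 library. Replication genes called lower numbered 9 to 11 without 1 library. For single named genes a call was lost in 120 fits without 1 library, 50 with the block, 42 and 15 with the pairs 3 and 4 and 1 and 2, 18 with the groups alone, 15 on library totals, 5 with no filter and 2 with DESeq2 size factors. The cause of these shifts was not tested. With 4 libraries a group, a gene that was not called may still differ, and genes with few counts, such as POLE3, RFC3 and TYMK, have wide errors.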
